A study of Mus musculus with 6 samples.

Results

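Genes that cells use to copy their DNA and to divide were measured in whole mouse lungs after tamoxifen was given to delete Tmem100. The set held 46 mitosis, DNA replication and nucleotide synthesis genes, listed by name, and 25 of them had a named probe on the array. The mutant mice carried Tmem1002loxP/2loxP;ROSA26+/CreER and the control mice Tmem1002loxP/2loxP, so both groups had loxP sites in both alleles of Tmem100, a transmembrane protein gene of the vascular lining. Both groups received 2 consecutive tamoxifen injections into the peritoneum, each of 0.1 mg per g of body weight, and lung RNA was taken 7 days later. There were 3 mutant mice and 3 control mice, with 1 array per mouse. CreER, a Cre recombinase that tamoxifen activates, was present in the mutants only, so loss of Tmem100 and activity of CreER cannot be told apart. It is expressed from ROSA26, a locus active in most cell types. Recombination was not measured here, and the sources used here do not give age or sex.

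A dividing cell first copies its DNA in S phase, when the MCM helicase unwinds the double strand and nucleotide synthesis enzymes supply the building blocks. It then enters mitosis under Cdk1 and its cyclins, aligns chromosomes on the spindle under the Aurora and Polo kinases, and is cut apart by the cytokinesis machinery. Replication genes are classically switched on by E2F factors before S phase, and mitosis genes later by the MuvB complex with B-MYB and FOXM1. In a lung at rest few cells divide, so many of these transcripts tend to be scarce, although Ccnd1 and Mcm4 had bright probes here. In whole lung RNA fewer dividing cells and less RNA per cell cannot be told apart.

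Most measured mitosis genes were lower in the mutant lungs, while most replication genes did not pass the test. Of the 25 measured members, 14 were lower, 0 were higher and 11 did not pass an adjusted p of 0.05 in limma, whereas over all 9383 genes tested 14.5% were lower and 12.7% higher. The members were chosen with earlier results of these data known, so their share is a description and not independent support. At an unadjusted p below 0.05, 16 members were lower and 1 was higher. The members' median log2 difference, mutant minus control, was -0.66, against 0.01 over all genes. In 14 members every mutant mouse lay below every control mouse, an arrangement seen in 24.5% of all genes, and in 2 members every mutant lay above every control, against 24.6%. By stage, 9 of 12 measured mitosis genes were lower, against 4 of 11 measured replication genes. These counts depended on the mice: when 1 mouse was left out, 6 members were lower in the case of control mouse 2, 7 for control mouse 1 and 8 for mutant mouse 1. Over the whole array 3573 probes passed with all mice, against 2104, 1679 and 2060 without these mice in the same order. The loss of calls was thus not particular to the members. On the authors' deposited processed values, which hold 2 distinct mutant arrays, 7 were lower.

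All 34 named probes of the 25 measured members met the detection rule, which asked for a detection p under 0.05 on 3 or more of the 6 arrays. Of these 34 probes, 29, 33 and 29 were detected on the arrays of mutant mice 1, 2 and 3, and 34, 33 and 33 on those of control mice 1, 2 and 3. The fewer detections in mutants belonged to dim probes of Cdk1, Cdca3, Cdc20, Birc5, Top2a, Uhrf1 and Tk1, and Bub1b was detected in 2 mutants and 1 control. Names were available only for probes of the authors' processed table, each detected on at least 2 arrays, so each measured member had a detectable probe. Of the 13361 probes that met the detection rule, 12429 were named. A member without a named probe may thus still have a detected probe among the unnamed ones. Without a named probe here, and thus not analysed, were the mitotic entry genes Ccna2, Ccnb1, Ccnb2, Cks1b and Cks2, the spindle and checkpoint genes Bub1, Ube2c, Kif11, Tpx2, Aurkb and Cdca8, and the cytokinesis genes Kif20a, Racgap1 and Ect2. The same held for Cdc6, Gins2, Pcna, Rrm2, Ccne1, Mki67 and Stmn1.

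The start regions of the members were compared by stage for known promoter elements, with no test. RefSeq gives a promoter region on GRCm38.p6, 250 bases before to 50 after the start, for 38 of the 46 members, 23 of them measured. A set of 3 short elements was searched on both strands, and a gene with several starts was counted where any of them held the word. The CHR, where the MuvB complex binds, was taken as TTTGAA or TTCGAA. The CCAAT box, bound by NF-Y, was taken as CCAAT, and the E2F site as TTCCCGC or its variant TTGGCGC, or else as TTCGCGC or the related TTGCCGC. The opposite strand of TTGGCGC shares letters with CCAAT where a T follows. Among the measured genes, 10 of 12 mitosis promoters held a CHR word, against 2 of 10 replication promoters and 19.2% of all 32817 promoter regions. An E2F word was found in 1 of 12 mitosis promoters, against 7 of 10 replication promoters and 9.57% of all regions. CCAAT was found in 10 of 12 mitosis and 7 of 10 replication promoters, against 37.4% of all regions. Of the 4 replication genes that fell, 0 held a CHR word and 2 an E2F word, while 2 of the 6 replication genes that did not pass and had a promoter held a CHR word and 5 an E2F word. A matched word is a description of the letters and not evidence of binding.

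The promoters printed here show the contrast and were chosen after their values and matches were known: the mitosis genes Cdca3, Cdk1 and Prc1 that fell, the replication genes Uhrf1 and Mcm5 that fell, and Mcm6, which did not pass. Each is written from 5′ to 3′ on the strand of the gene, and capitals mark the words found. Cdca3 and Prc1 held CHR and CCAAT words, Cdk1 all of the elements, and the last 3 CCAAT and E2F words. For Prc1 and Uhrf1, which have 2 annotated starts, the upstream region is shown.
Cdca3, chr6:124829926-124830225, plus strand: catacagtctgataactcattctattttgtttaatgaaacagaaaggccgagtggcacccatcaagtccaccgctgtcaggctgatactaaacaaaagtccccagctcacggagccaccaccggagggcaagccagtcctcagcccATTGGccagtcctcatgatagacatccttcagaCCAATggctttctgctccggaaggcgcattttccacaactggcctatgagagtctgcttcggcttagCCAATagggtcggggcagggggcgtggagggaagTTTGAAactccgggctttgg
Cdk1, chr10:69352863-69353162, minus strand: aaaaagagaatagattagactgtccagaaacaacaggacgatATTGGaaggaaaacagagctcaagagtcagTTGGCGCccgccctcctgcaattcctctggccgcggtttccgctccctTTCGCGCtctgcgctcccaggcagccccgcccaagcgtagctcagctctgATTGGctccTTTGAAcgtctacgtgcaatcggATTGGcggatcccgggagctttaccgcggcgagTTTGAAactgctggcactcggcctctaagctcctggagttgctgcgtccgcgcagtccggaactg
Prc1, chr7:80294201-80294500, plus strand: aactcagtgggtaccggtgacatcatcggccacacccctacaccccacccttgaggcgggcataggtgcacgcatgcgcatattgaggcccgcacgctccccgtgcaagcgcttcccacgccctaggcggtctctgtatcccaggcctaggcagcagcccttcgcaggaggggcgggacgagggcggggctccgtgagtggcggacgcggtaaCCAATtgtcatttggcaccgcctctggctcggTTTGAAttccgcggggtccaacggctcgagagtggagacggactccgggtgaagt
Uhrf1, chr17:56303087-56303386, plus strand: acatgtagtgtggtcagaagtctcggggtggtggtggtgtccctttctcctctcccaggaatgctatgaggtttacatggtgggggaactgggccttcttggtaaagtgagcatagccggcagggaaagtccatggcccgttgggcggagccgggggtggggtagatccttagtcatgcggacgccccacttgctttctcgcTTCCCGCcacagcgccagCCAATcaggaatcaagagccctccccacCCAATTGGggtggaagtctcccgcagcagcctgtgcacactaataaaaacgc
Mcm5, chr8:75109259-75109558, plus strand: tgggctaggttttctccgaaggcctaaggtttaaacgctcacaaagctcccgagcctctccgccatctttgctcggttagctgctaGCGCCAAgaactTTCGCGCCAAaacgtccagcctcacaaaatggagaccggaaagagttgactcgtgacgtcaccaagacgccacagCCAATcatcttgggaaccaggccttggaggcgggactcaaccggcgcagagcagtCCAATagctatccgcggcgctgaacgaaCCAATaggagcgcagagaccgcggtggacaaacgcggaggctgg
Mcm6, chr1:128359656-128359955, minus strand: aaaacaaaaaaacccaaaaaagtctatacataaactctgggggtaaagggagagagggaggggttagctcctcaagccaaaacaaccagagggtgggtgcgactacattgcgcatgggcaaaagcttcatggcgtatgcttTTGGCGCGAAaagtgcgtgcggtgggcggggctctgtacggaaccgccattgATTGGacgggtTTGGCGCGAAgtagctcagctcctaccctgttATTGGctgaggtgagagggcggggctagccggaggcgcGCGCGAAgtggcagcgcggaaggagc

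The genes of mitotic entry fell together: all 4 measured of 9 listed were lower, with differences of -1.15 to -0.64 on the log2 scale. Values are log2 normalized intensities in mutant mice 1, 2 and 3 and then in control mice 1, 2 and 3. Cdca3, whose product helps mark the mitotic inhibitor WEE1 for destruction, stood at 6.90, 6.89 and 6.67 in mutants, against 7.80, 8.19 and 7.91 in controls. The mutants lay close together and well below every control, a difference of -1.15 ± 0.14 (SE, n = 3 mice per group) or 2.22-fold (adjusted p = 0.00404). Another probe of Cdca3 was detected in no mutant and all 3 controls, at least 1.50-fold lower, but it met the detection rule through the controls alone and so adds no support. Cdk1, the kinase that drives cells into mitosis, stood at 6.38, 6.38 and 5.65 in mutants, the last not detected, against 7.09, 7.65 and 7.01 in controls. The groups did not overlap, and the difference was -1.12 ± 0.26 (adjusted p = 0.0211). Without control mouse 1 or 2 the adjusted p of Cdk1 was 0.0538 or 0.0591, and on the deposited processed values 0.0703.

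Aurka, a kinase that matures the spindle poles, stood at 6.81, 7.38 and 6.70 in mutants, against 7.69, 8.24 and 7.61 in controls. Its groups did not overlap, with mutant mouse 2 nearest to the controls, and the difference was -0.89 ± 0.24 (adjusted p = 0.0352). Plk1, the Polo kinase that acts from mitotic entry to exit, stood at 7.60, 7.76 and 7.70 in mutants, against 8.19, 8.70 and 8.11 in controls. The mutants spanned a narrow range below all controls, and the difference was -0.64 ± 0.17 (adjusted p = 0.0347). Neither call was firm. The call of Aurka was lost without mutant mouse 1 (adjusted p = 0.100), mutant mouse 3 (0.0873), control mouse 1 (0.0734) or control mouse 2 (0.0906). That of Plk1 was lost without mutant mouse 1 (0.101), 2 (0.0686) or 3 (0.0693) and without control mouse 1 (0.068) or 2 (0.0573). On the deposited processed values the adjusted p was 0.124 for Aurka and 0.119 for Plk1, and with no detection filter 0.0539 and 0.0534.

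**Figure D1:**
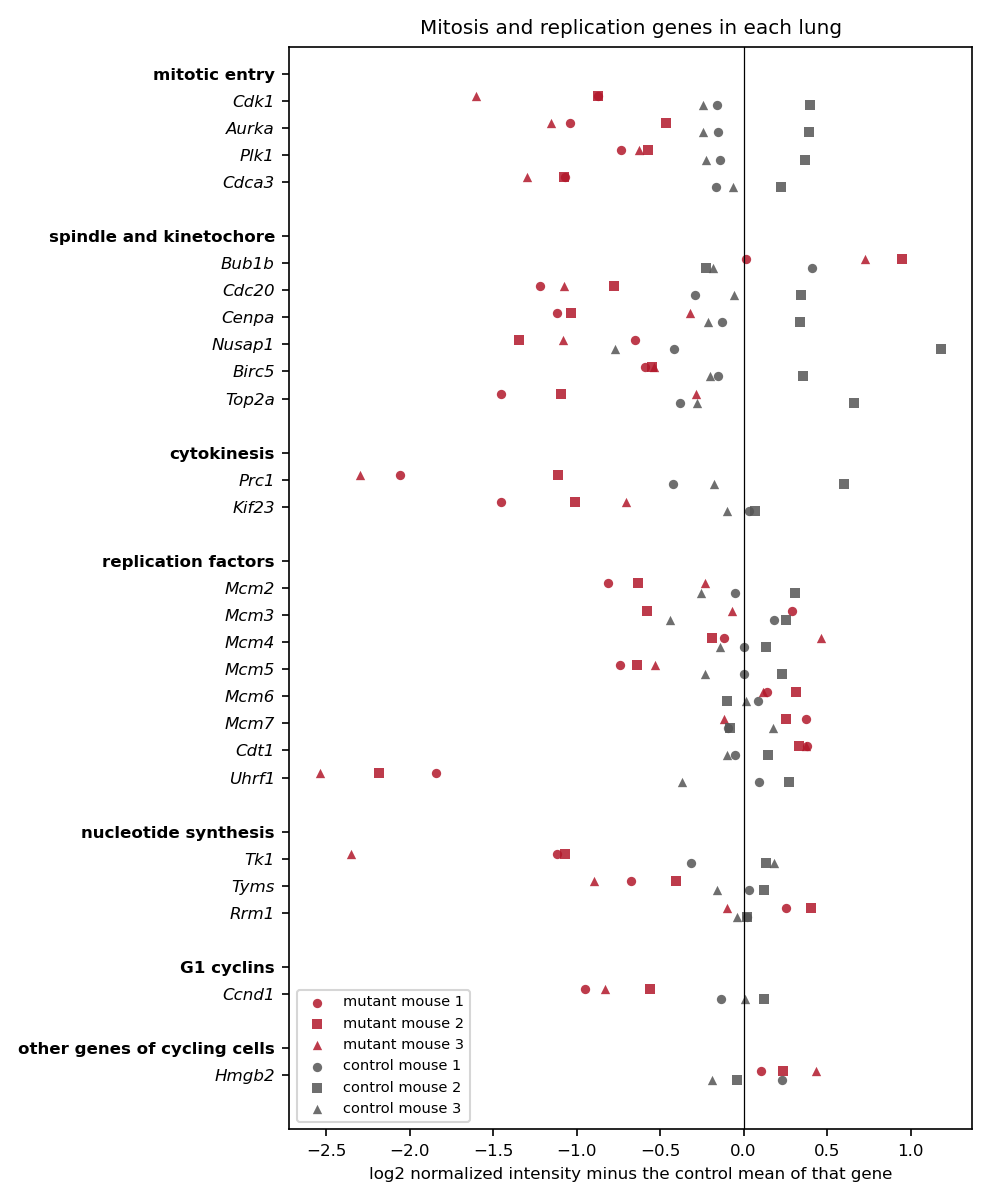
Log2 normalized intensity of each measured member in each mouse, minus the mean of the 3 control mice for that gene (horizontal axis), with genes grouped by role from top to bottom and red symbols for mutants, grey for controls. All mutants lie left of all controls in the 4 mitotic entry genes, Prc1 and Kif23, while the replication factors other than Mcm5 and Uhrf1 lie near or across the control values.

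Among spindle and kinetochore genes, 3 of 6 measured were lower, and the median difference over the 6 was -0.88. Cdc20, which activates the ubiquitin ligase that starts anaphase, stood at 7.62, 8.06 and 7.76 in mutants, against 8.54, 9.18 and 8.78 in controls. No mutant reached the lowest control, and the difference was -1.02 ± 0.20 or 2.03-fold (adjusted p = 0.0121). Its other probes differed by -0.90 (adjusted p = 0.0641) and -1.09 (0.0433). Cenpa, the histone variant that marks centromeres, stood at 9.85, 9.93 and 10.64 in mutants, against 10.84, 11.30 and 10.75 in controls. Mutant mouse 3 lay just under the lowest control, and the difference was -0.83 ± 0.25 (adjusted p = 0.0487). Birc5, the chromosomal passenger protein survivin, stood at 7.34, 7.39 and 7.40 in mutants, against 7.78, 8.29 and 7.73 in controls. The mutants were nearly equal and below all controls, with a difference of -0.56 ± 0.17 (adjusted p = 0.0474), and its dimmer probes fell further, by 0.84 (adjusted p = 0.00825) and 1.18 (adjusted p = 0.0114) on the log2 scale.

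The calls of Cenpa and Birc5 were close to the threshold. Cenpa was not called without mutant mouse 1 (adjusted p = 0.133) or 2 (0.126), without control mouse 1 (0.0978), 2 (0.133) or 3 (0.0649), on the deposited processed values (0.108) or with no detection filter (0.0751). Birc5 was not called without mutant mouse 1 (0.117), 2 (0.102) or 3 (0.0855), without control mouse 1 (0.0787) or 2 (0.0767), on the deposited processed values (0.161), with no background correction (0.0731), with no detection filter (0.0732) or with a variance trend (0.0542).

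The 3 other measured genes of this role did not pass. Top2a, the topoisomerase that untangles chromosomes, stood at 5.83, 6.18 and 6.99 in mutants, against 6.90, 7.94 and 7.00 in controls, a difference of -0.94 ± 0.37 (adjusted p = 0.103). Mutant mouse 3 lay within the control values, and without it the adjusted p was 0.0420, while with array weights it was 0.0367. Nusap1, a microtubule bundling protein of the spindle, stood at 6.90, 6.20 and 6.46 in mutants, against 7.13, 8.73 and 6.78 in controls (-1.03 ± 0.49, adjusted p = 0.158). Control mouse 2 alone was high, and mutant mouse 1 lay above the lowest control. Bub1b, the spindle checkpoint kinase BubR1, stood at 5.51, 6.44 and 6.22 in mutants, against 5.90, 5.27 and 5.31 in controls (0.56 ± 0.28, adjusted p = 0.176). It was the measured mitosis gene with a positive difference, its groups overlapped, and its values were near the detection limit.

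Both measured cytokinesis genes were lower, and Prc1 had the largest corrected difference of the mitosis genes. Prc1, which bundles the microtubules of the central spindle, stood at 7.77, 8.71 and 7.53 in mutants, against 9.40, 10.43 and 9.65 in controls. The highest mutant lay below the lowest control, and the difference was -1.82 ± 0.37 or 3.54-fold (adjusted p = 0.0142). Kif23, the kinesin of the centralspindlin complex, stood at 6.75, 7.19 and 7.50 in mutants, against 8.23, 8.27 and 8.10 in controls. Controls were nearly equal and all above the mutants, and the difference was -1.06 ± 0.19 or 2.08-fold (adjusted p = 0.0106). The calls of Prc1 and Kif23, like those of Cdca3, Cdc20, Uhrf1 and Ccnd1, were kept in each alternative in which they were tested. Cdca3 and Uhrf1 were not tested under the strictest detection filter.

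Among replication factors, 2 of 8 measured were lower, and the median difference was -0.03. Uhrf1, which carries DNA methylation through replication by recognising half-methylated sites, had the largest corrected difference of all members. With no background correction and on the deposited processed values Prc1 came before it, with -1.14 against -0.80 and -1.06 against -0.81. Uhrf1 stood at 6.51, 6.17 and 5.81 in mutants, against 8.44, 8.62 and 7.98 in controls, and it was detected on 2 mutant arrays. Every mutant lay far below every control, and the difference was -2.18 ± 0.23 or 4.55-fold (adjusted p = 0.00312). The raw intensities of the same probe were 356, 336 and 325 in mutants, against 742, 677 and 520 in controls.

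The MCM helicase, the ring that unwinds DNA at the fork, has 6 subunits, Mcm2 to Mcm7, all measured, and 1 of them fell. Mcm5 stood at 9.01, 9.11 and 9.22 in mutants, against 9.75, 9.98 and 9.51 in controls, with no overlap and a difference of -0.64 ± 0.15 (adjusted p = 0.0216). Without mutant mouse 1 (adjusted p = 0.0730) or 2 (0.0575), without control mouse 1 (0.0690) or 2 (0.0583), and on the deposited processed values (0.0511) Mcm5 was not called. Mcm2 stood at 7.80, 7.98 and 8.38 in mutants, against 8.56, 8.92 and 8.36 in controls (-0.56 ± 0.20, adjusted p = 0.0842). Mutant mouse 3 overlapped the controls, and without it the adjusted p was 0.0433, while median scaling gave 0.0424 and array weights 0.0178. Mcm4 stood at 11.72, 11.65 and 12.30 in mutants, against 11.85, 11.98 and 11.70 in controls (0.05 ± 0.19, adjusted p = 0.864). Its sign was negative without mutant mouse 3 (-0.15), without control mouse 3 (-0.02) and with array weights (-0.08), so no direction can be given for it.

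Mcm6 stood at 9.16, 9.33 and 9.13 in mutants, against 9.10, 8.91 and 9.03 in controls. All mutants lay just above all controls, yet the difference was 0.19 ± 0.12 (adjusted p = 0.257), and its other probes gave 0.01 and -0.13. Mcm3 and Mcm7 overlapped between groups, with differences of -0.12 ± 0.27 (adjusted p = 0.773) and 0.17 ± 0.16 (0.466), and without mutant mouse 2 or control mouse 2 the difference of Mcm3 was 0.11 or 0.01. Whether the subunits differed from each other was not tested. Cdt1, which loads the helicase onto origins, stood at 8.92, 8.87 and 8.91 in mutants, against 8.49, 8.68 and 8.44 in controls. Mutants were nearly equal and all above the controls, but the difference of 0.36 ± 0.11 did not pass (adjusted p = 0.0544). It passed with no background correction (0.0449), with the strictest detection filter (0.0364), with array weights (0.0196) and with the mean of a gene's probes (0.0497), in each case higher in mutants.

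Of the nucleotide synthesis genes, 2 of 3 measured were lower, with a median difference of -0.66. Tk1, the thymidine kinase of S phase, stood at 6.68, 6.72 and 5.44 in mutants, the last not detected, against 7.48, 7.92 and 7.98 in controls. Its groups did not overlap, and the difference was -1.51 ± 0.35 (adjusted p = 0.0212), but the adjusted p was 0.0666 without control mouse 2 and 0.0573 without control mouse 3. Tyms, thymidylate synthase, stood at 7.50, 7.77 and 7.28 in mutants, against 8.21, 8.30 and 8.02 in controls. The mutants lay below all controls, and the difference was -0.66 ± 0.16 (adjusted p = 0.0240). Tyms was not called without mutant mouse 1 (0.0711) or 3 (0.0503), without control mouse 1 (0.0787) or 2 (0.0745), or on the deposited processed values (0.0784). Rrm1, the large subunit of ribonucleotide reductase, stood at 9.68, 9.83 and 9.33 in mutants, against 9.45, 9.45 and 9.39 in controls (0.19 ± 0.15, adjusted p = 0.388), with overlap. The genes of both measured thymidine nucleotide enzymes thus fell, and that of the measured reductase subunit did not pass.

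Of the remaining members, Ccnd1, the cyclin D1 that answers growth signals in G1, fell and had a bright probe. Its values were 12.32, 12.71 and 12.44 in mutants, against 13.14, 13.40 and 13.28 in controls, and the raw intensities were 5130, 6612 and 5385 in mutants, against 11167, 10486 and 9797 in controls. The groups stood clearly apart, and the difference was -0.78 ± 0.14 or 1.72-fold (adjusted p = 0.0103). Its other probes gave -0.79 (adjusted p = 0.00980) and -0.84 (adjusted p = 0.106). Hmgb2, a chromatin protein abundant in cycling cells, stood at 8.27, 8.40 and 8.60 in mutants, against 8.40, 8.13 and 7.98 in controls (0.26 ± 0.15, adjusted p = 0.247), with overlap.

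Many members lay near the array background, and the size of their differences moved with background correction. With no background correction the fold of Uhrf1 was 1.74 in place of 4.55, that of Tk1 1.42 in place of 2.85, and that of Prc1 2.20 in place of 3.54. Cdk1 changed by 1.25-fold in place of 2.17, Cdca3 by 1.35 in place of 2.22, and Kif23 by 1.36 in place of 2.08. Each of these genes was lower both ways, and each call was kept. The differences of Top2a and Nusap1, which did not pass, corresponded to 1.22-fold and 1.31-fold without correction, against 1.92 and 2.04 with it. Bright Ccnd1 was almost unmoved, at 1.69-fold in place of 1.72.

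**Figure D2:**
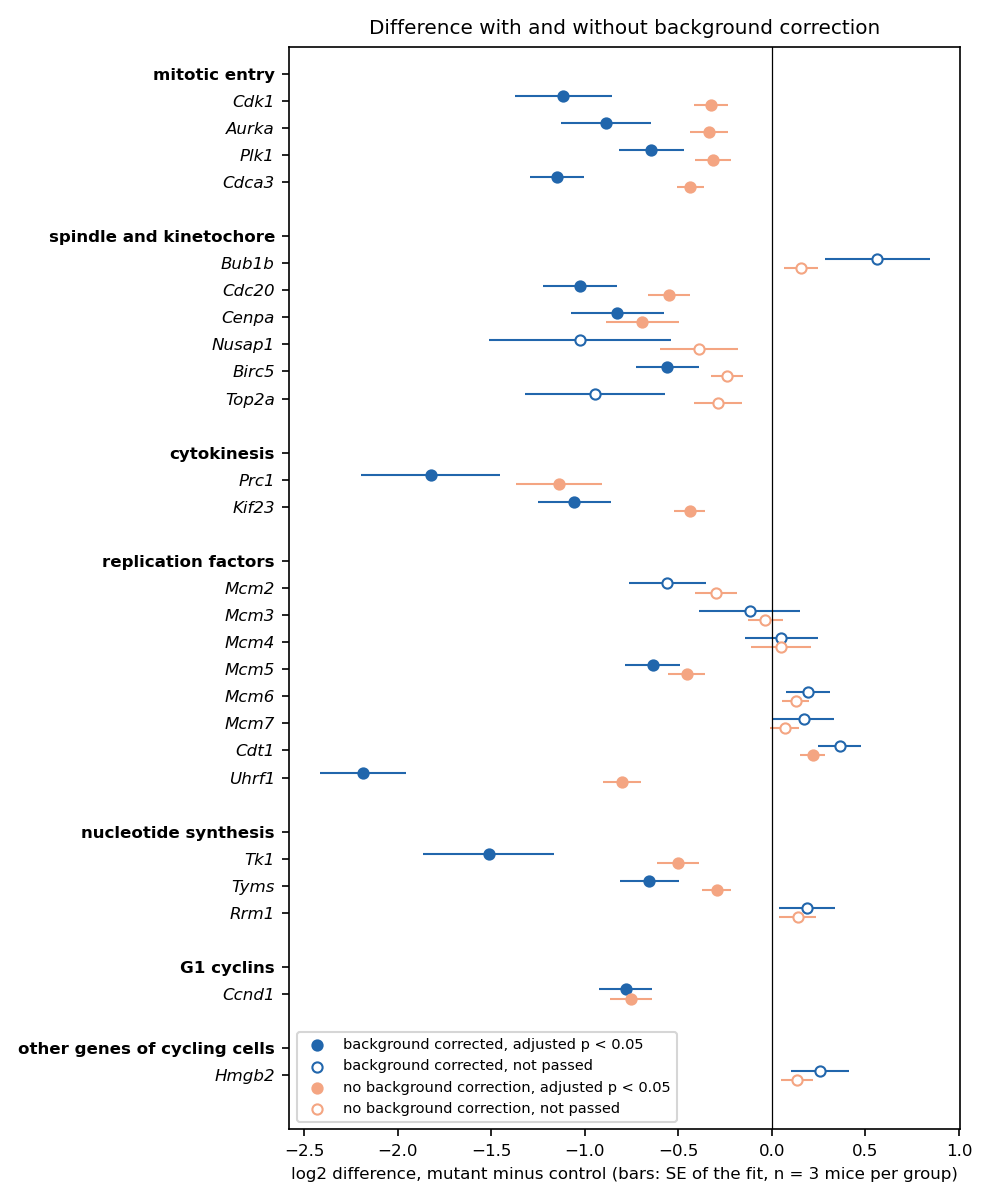
Log2 difference, mutant minus control, of each measured member with background correction (blue) and without it (orange), with bars of 1 standard error of the fit (n = 3 mice per group) and filled points where the adjusted p is below 0.05. Uncorrected differences are smaller for dim genes such as Uhrf1 and Tk1 and nearly the same for Ccnd1.

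Set side by side in each mouse, the stages separated in mutants. The median deviation of the 12 mitosis genes from their control means was -1.05, -0.94 and -0.89 in mutant mice 1, 2 and 3, against -0.16, 0.36 and -0.21 in control mice 1, 2 and 3. For the 11 replication genes it was -0.12, -0.40 and -0.12 in mutants, against 0.00, 0.13 and -0.14 in controls. Mutants and controls did not overlap for mitosis, and mutants overlapped controls for replication. Replication minus mitosis was 0.93, 0.54 and 0.77 in mutants, against 0.16, -0.23 and 0.07 in controls, which averages 0.75 ± 0.20 in mutants and 0.00 ± 0.20 in controls (SD, n = 3 each). Because deviations were taken from the control means, the control average lies near 0.00 by construction. The gap between the stages was thus larger in each mutant than in any control. It is a description without a test, since its genes are not replicates. With no background correction the gap was 0.26 and on the deposited processed values 0.24, both still positive. The median difference of the replication genes, -0.12, was 0.11 with the strictest detection filter, 0.08 without mutant mouse 2 and 0.01 without control mouse 2, so it has no settled sign.

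The same mice were often at the ends of their group. Control mouse 2 was the highest control in 11 of 12 mitosis genes and 8 of 11 replication genes, and control mouse 3 the lowest in 7 of 12 and 8 of 11. Mutant mouse 1 was the lowest mutant in 7 of 12 mitosis genes. The values of different members in a mouse were thus not independent replicates of the comparison. Without control mouse 2 the median difference of the mitosis genes was -0.67, against -0.98 with all mice, and 4 mitosis genes and 1 replication gene were lower. Without control mouse 1, 4 mitosis genes and 2 replication genes were lower, and without mutant mouse 1, 5 and 2. Without each of these mice fewer probes also passed over the whole array.

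**Figure D3:**
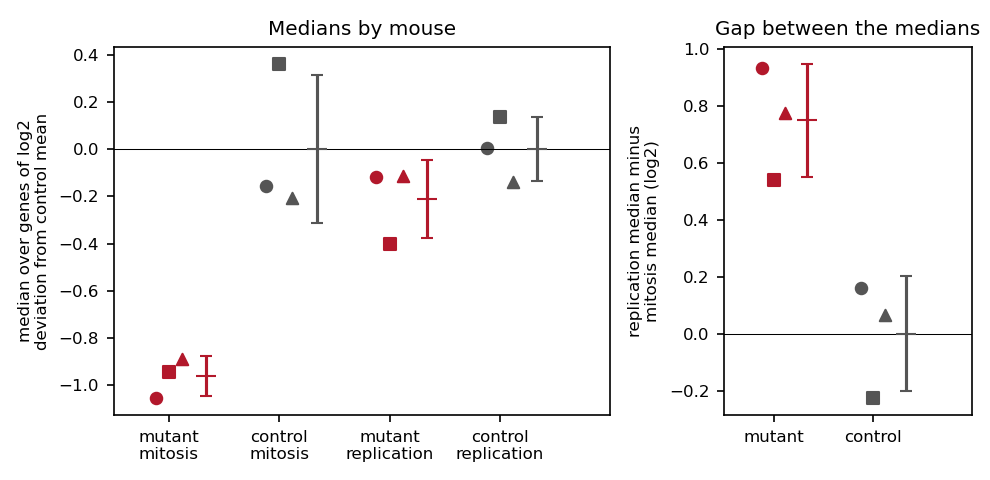
Left, median over the 12 mitosis genes and over the 11 replication genes of the log2 deviation from the control mean in each mouse, and right, the replication median minus the mitosis median, with circles, squares and triangles for mice 1, 2 and 3, red for mutants, grey for controls, and bars for the mean ± SD of 3 mice. The mutant gap lies between 0.54 and 0.93, above the control range of -0.23 to 0.16.

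Genes beyond the set were read by the same fit. These further lists were likewise chosen with earlier results of these data known. With any mouse left out, fewer probes also passed over the whole array (1679 to 3077, against 3573). Of 15 measured among 42 other mitosis genes listed, 8 were lower and 0 higher (9 and 1 at an unadjusted p below 0.05), with a median of -0.46. These are 53.3% lower, against 14.5% of all genes. Among the lower genes, Kif2c was detected in no mutant and all 3 controls. It met the detection rule through the controls alone and so adds no support, although the share of 53.3% counts it. Pbk, a mitotic kinase, stood at 5.54, 6.30 and 5.74 in mutants, 1 of them detected, against 7.60, 8.44 and 7.56 in controls (-2.01 ± 0.29, adjusted p = 0.00578). Cdca2, which recruits a phosphatase to chromosomes at mitotic exit, was also detected in 1 mutant and differed by -1.34 ± 0.28 (adjusted p = 0.0158). The undetected mutant values of both lay below the lowest detected signal of their arrays, so the size of these differences is not exact. The folds of Pbk and Cdca2 were 2.57 and 1.93 times as large with background correction as without it. Ncaph, a subunit of the condensin that compacts chromosomes, stood at 8.30, 8.46 and 8.42 in mutants, against 9.68, 9.30 and 9.39 in controls (-1.06 ± 0.14, adjusted p = 0.00435). Kif22, a kinesin that pushes chromosome arms, differed by -0.88 ± 0.24 (adjusted p = 0.0372). Cdca2 was not called without mutant mouse 1 (0.0536), without control mouse 2 (0.0532) or on the deposited processed values (0.0709), and Kif22 was not called without mutant mouse 1 (0.0780) or 3 (0.0680) or without control mouse 1 (0.0666), 2 (0.107) or 3 (0.0711), on the deposited processed values (0.0898) or with no detection filter (0.0570). With a mouse left out, the count of lower genes was 3 for mutant mouse 1 and for control mouse 2, 4 for control mouse 1, and 5 for mutant mouse 3. On the deposited processed values 3 were lower and 1 higher, and with the strictest detection filter 5 were lower.

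Of the other replication genes, 27 of 40 listed were measured, and 5 were lower and 5 higher, with a median of 0.04. These are 18.5% each way, near the 14.5% lower and 12.7% higher of all genes, so the counts set nothing apart about the list. The 2 subunits of the DDK kinase, which fires replication origins, moved apart. Dbf4, its activating subunit, stood at 8.99, 8.84 and 9.33 in mutants, against 7.98, 7.57 and 7.98 in controls (1.21 ± 0.18, adjusted p = 0.00602). Cdc7, its catalytic subunit, stood at 7.38, 7.58 and 7.70 in mutants, against 8.43, 8.63 and 8.31 in controls (-0.90 ± 0.14, adjusted p = 0.00655). Neither gene's groups overlapped. Orc3, of the origin recognition complex, fell by 0.82 ± 0.14 (adjusted p = 0.00931), and Chaf1b, of the factor that places histones on new DNA, rose by 0.78 ± 0.13 (adjusted p = 0.00776). Without mutant mouse 1, mutant mouse 2 or control mouse 1, 3 were lower and 3 higher, and without control mouse 2, 3 were lower. On the deposited processed values 3 were higher, and with array weights 8.

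**Figure D4:**
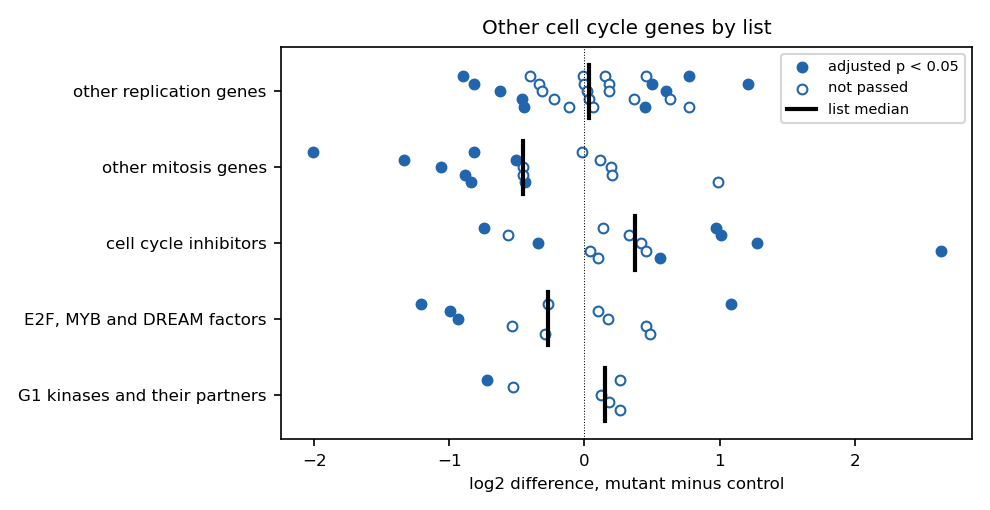
Log2 difference, mutant minus control, of every measured gene of the 5 further cell cycle lists (1 row per list), with filled points where the adjusted p is below 0.05 and a bar at the list median. The medians are 0.04 for other replication genes, -0.46 for other mitosis genes, 0.37 for inhibitors, -0.27 for E2F, MYB and DREAM factors and 0.15 for G1 kinases and their partners.

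Of the cell cycle inhibitors, 5 of 14 measured among 17 listed were higher and 2 lower, with a median of 0.37. These are 35.7% higher, against 12.7% of all genes. The 14.3% lower is near the 14.5% of all genes, so that count sets nothing apart about the list. Cdkn1a, which encodes p21, an inhibitor of cyclin-dependent kinases, stood at 14.00, 13.91 and 14.46 in mutants, against 11.56, 10.80 and 12.10 in controls (2.63 ± 0.33, adjusted p = 0.00403). Every mutant lay far above every control. Gadd45g, a stress sensor that slows the cycle, stood at 13.61, 13.31 and 13.53 in mutants, against 12.23, 11.99 and 12.39 in controls (1.28 ± 0.15, adjusted p = 0.00364). Gadd45b, of the same family, rose by 0.97 ± 0.19 (adjusted p = 0.0131). Cdkn2b, the CDK4 and CDK6 inhibitor p15, rose by 1.01 ± 0.25 (adjusted p = 0.0271), but was not called without mutant mouse 1 (0.0625) or without control mouse 1 (0.0764), 2 (0.0564) or 3 (0.0736). The count higher was 3 without mutant mouse 1, control mouse 1 or control mouse 2, and the count lower was 0 or 1 without any single mouse. The count lower was 1 with median scaling, on the deposited processed values, with no detection filter and with the mean of a gene's probes.

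Among E2F, MYB and DREAM factors, the transcription factors that switch these genes on and off, 3 of 11 measured among 18 listed were lower and 1 higher, with a median of -0.27. These are 27.3% lower, against 14.5% of all genes, and 9.09% higher, against 12.7%. E2f1, an activator of S phase genes, stood at 8.91, 9.14 and 8.71 in mutants, against 9.79, 10.12 and 9.82 in controls (-0.99 ± 0.16, adjusted p = 0.00681). E2f2, a further activator, stood at 9.56, 9.85 and 8.93 in mutants, against 10.57, 10.80 and 10.62 in controls (-1.21 ± 0.23, adjusted p = 0.0120). Both lay below all controls in each mutant. E2f6, a repressor, fell by 0.93 ± 0.13 (adjusted p = 0.00528). Mybl2, which encodes B-MYB, ran the other way at 8.19, 8.23 and 8.52 in mutants, against 7.14, 7.08 and 7.47 in controls (1.08 ± 0.16, adjusted p = 0.00553), and its fold was 1.52 times as large with background correction as without it. The count higher was 2 without mutant mouse 1 or control mouse 2, and also with the other offset, no background correction, the deposited processed values, the strictest filter or a variance trend. Of 6 measured G1 kinases and partners among 14 listed, 1 was lower and 0 higher (2 and 0 at an unadjusted p below 0.05), with a median of 0.15. The 16.7% lower is near the 14.5% of all genes, so the count sets nothing apart about this list. A dimmer probe of Cdk2, not counted here, was higher (0.50, adjusted p = 0.0170). The brightest probe of Cdk2 did not pass (0.12, 0.453), nor did those at 0.23 (0.166) and -0.01 (0.966). The lower gene, Ccnd2, which encodes cyclin D2, differed by -0.72 ± 0.16 (adjusted p = 0.0189) and was not called without mutant mouse 1 (0.0608) or 2 (0.0576) or without control mouse 1 (0.0678) or 2 (0.0561). The count lower was 2 without mutant mouse 3 or control mouse 3, and array weights gave 2 lower and 1 higher.

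Some markers of several other cell types fell alongside the mitosis genes, while the sums of other marker lists overlapped between the groups. Their part in the fall of the mitosis genes was not tested. Over all genes tested, 14.5% were lower and 12.7% higher. Of the lymphocyte markers 8 of 13 were measured and 4 were lower. The summed normalized intensity of the list was 4484 to 5241 in mutants, against 6410 to 8094 in controls. Cd3e (-0.07, adjusted p = 0.811), Cd3g (-0.49, 0.166), Cd8b1 (0.03, 0.943) and Cd79b (-0.62, 0.166) did not pass. Of endothelial markers 4 of 6 measured were lower, with sums of 42134 to 56456 in mutants, against 58966 to 62841 in controls. Pecam1 (probes at -0.03 and -0.18, adjusted p = 0.863 and 0.379) and Esam (0.04, 0.895) did not pass. Of 6 measured cardiac markers 3 were lower (sums of 8946 to 17265 in mutants, against 26231 to 63930 in controls). Control mouse 2 was the highest control in the cardiac markers Myh6, Myl7, Actc1 and Tnni3. In control mice 1, 2 and 3 Actc1 stood at 12.54, 13.88 and 12.03, and Myh6 at 11.58, 12.78 and 11.36. Of 3 measured adipocyte markers (183 to 306, against 420 to 4604) 1 was lower, Adipoq, which was detected in 1 mutant. Cidec (adjusted p = 0.0886) and Lep (0.650) did not pass. Ckm, the measured skeletal muscle marker, was lower (20.3 to 46.4, against 108 to 1544). It was detected in no mutant, met the detection rule through the controls alone and so adds no support. The thymocyte list was measured by Cd1d1 alone, which also marks other cells and was lower (sums of 98.0 to 259 in mutants, against 522 to 1078 in controls), and the erythroid list by Tfrc alone, which was lower (2198 to 2392, against 3179 to 3536). Their defining genes Rag1, Rag2, Dntt, Ptcra and Alas2 had no named probe here. Sums overlapped between mutants and controls for germinal centre and plasma cell markers (19226 to 24974, against 17784 to 20855), where 1 of 5 was lower, for epithelial markers (139145 to 151149, against 142618 to 153441), where 1 of 7 was higher, and for neutrophil and macrophage markers (14378 to 24835, against 12812 to 41405), where 1 of 8 was lower. The shares called in these lists, 20% lower, 14.3% higher and 12.5% lower, were near those of all genes. Scgb1a1, with raw intensities of 62586 to 66886 over the 6 arrays, lay near the top of their range and bounds the epithelial sum, which without it was 75167 to 87836 in mutants, against 77783 to 89463 in controls. The lung epithelial markers Sftpc, Sftpb, Scgb1a1 and Ager were detected on all 6 arrays.

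Over the whole array, 12781 to 13046 of 25697 probes were detected in mutants, against 13354 to 13749 in controls, and the median raw intensity was 333 to 339 in mutants, against 335 to 363 in controls. Tmem100 itself stood at 8.44, 9.43 and 9.51 in mutants, against 11.16, 15.36 and 10.69 in controls. Every mutant lay below every control, while the difference of -3.28 ± 1.15 did not pass (adjusted p = 0.0749), with control mouse 2, the highest control in most mitosis genes, far above the other controls.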

How the data were processed

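RNA of 6 whole lungs, 1 per mouse, was amplified from 550 ng and hybridised to 1-colour Illumina bead arrays, per the labels. The deposited unnormalized table holds, per the file headers, a linear intensity and a detection p-value for each array and 25697 probes. The authors' processed table holds log2 values for 13261 probes; the sources used here do not say how they were made. The submitters' processing notes name GenomeStudio 2009.2 and R 2.4.1. In the authors' log2 values, mutant mouse 1 equals mutant mouse 2 at all 13261 probes, so that table served only as an alternative, with mutants 2 and 3.

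Intensities were corrected by normexp with background inferred from detection p-values (neqc, offset 16), quantile normalized and put on the log2 scale with limma 3.58.1 in R 4.3.3. Probes with detection p below 0.05 on at least 3 of 6 arrays (13361) were fitted by lmFit and eBayes, mutant minus control, without covariates, with Benjamini-Hochberg adjustment over all of them. A gene was its brightest tested probe. Platform annotation named 12495 probes, 12490 updated by Entrez identifier to RefSeq GRCm38.p6 symbols and 5 kept as given. Fold bounds set the brighter mean against the lowest detected signal of the dimmer arrays. Marker sums add normalized intensities on the linear scale, each less the offset of 16. The offset was not subtracted in the epithelial sum without Scgb1a1.

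The members, roles and the 15 further lists were chosen with earlier results of these data known. Genes named are all members that passed, per role the 2 lowest p and 2 brightest of the others, and per list the 4 largest passing differences; Bub1b, Mcm3 and Mcm7 were added to account for every member. Alternatives were another offset, no background correction, median scaling, the processed table, other detection filters, a variance trend, array weights, the mean of a gene's probes, a block on replicate number and leaving out each mouse. Counts by stage and list, and these 3 genes, were put through them after the data had been seen. Fits were tested on simulated data. The sources used here do not give the chip or scan of each array. The number of arrays limits precision.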

Additional observations from a re-analysis of the deposited data

How the results depend on the processing

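Of 661 recomputed gene values, 580 kept their direction and their side of the threshold, 67 lost a call, 9 gained a call and 5 reversed. The count of lower members, 14, was 7 on the deposited processed values and 9 with the strictest detection filter, where 16 members were measured; leaving out a mouse gave 6 (without control mouse 2) to 12. The count of higher members was 1 in place of 0, the gene Cdt1, with no background correction, with the strictest filter, with array weights and with the mean of a gene's probes, each time among the replication genes, and 0 without any single mouse. Lower mitosis genes numbered 4 on the deposited processed values, 5 with no detection filter, and 4 to 8 leaving out a mouse, against 9. Lower replication genes numbered 2 on the deposited processed values and with the strictest filter, and 1 to 4 leaving out a mouse, against 4. The median of the mitosis genes was -0.36 with no background correction, -0.35 on the deposited processed values and -1.07 to -0.67 leaving out a mouse. That of the replication genes reversed to 0.11 with the strictest filter and ranged from -0.34 to 0.077 leaving out a mouse. Replication minus mitosis was 0.26 with no background correction, 0.24 on the deposited processed values and 0.57 to 0.85 leaving out a mouse. Probes past the threshold numbered 1679 (without control mouse 1) to 3077 leaving out a mouse, against 3573. Mcm4 (0.05) reversed to -0.078 with array weights, and to -0.15 without mutant mouse 3 and -0.02 without control mouse 3, within a range up to 0.17 leaving out a mouse, and Mcm3 to 0.11 without mutant mouse 2 and 0.01 without control mouse 2. Fewer samples were fitted on leaving out a mouse and on the processed table; other causes were not tested.

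No pairing of the mice by replicate number was seen. Deviations of same-numbered mice from their group means correlated at -0.09, -0.01 and -0.04, and those of different-numbered mice at -0.02 to 0.07. With 3 mice per group this check cannot exclude a weak shared effect. With the replicate block 11 members were lower, 7 of them mitosis and 3 replication genes, and 2642 probes passed; the lost calls were Cenpa (adjusted p = 0.0874), Birc5 (0.0717) and Mcm5 (0.0526), and in the further lists, where 3 other replication genes, 1 inhibitor and 0 G1 genes were lower, Cdkn2b (0.0620) and Ccnd2 (0.0512) among named genes. Probes near background limit this set: 9 of its 34 probes were not detected on all 6 arrays.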
